A study of Mus musculus with 8 samples.

Results

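The genes described here are 43 genes of mitosis, the stage of the cell cycle at which replicated chromosomes are condensed, attached to the spindle and pulled apart. They were taken by name as a module, with earlier results of these data known, and followed in the RNA of mouse embryonic stem cells (ESCs) in which ZZZ3 or YEATS2 was targeted for degradation. Both proteins are subunits of ATAC, a coactivator complex that carries a histone acetyltransferase. All 43 were among the 55401 genes of the count tables, and all 43 were among the 17532 genes that passed the filter on low counts. The question was whether the module shows the repression of cell cycle genes that is known downstream of p53.

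Total RNA of 8 libraries was sequenced: 2 Control libraries, 3 labelled Zzz3 auxin and 3 labelled Yeats2 auxin. In the auxin groups ZZZ3 or YEATS2 carried an auxin-inducible degron (AID), and auxin at 500 µM for 24 h leads to destruction of the tagged protein. The protocol that covers all 8 libraries gives serum, leukaemia inhibitory factor and 2 inhibitors (CHIR99021 and PD0325901) in the medium, and G418 to select for Tir1, the plant protein through which auxin acts on the tag. The study describes its contrasts as auxin against the solvent DMSO within each AID line. The labels do not say which line or solvent the 2 Control libraries had, although both depletions are set against them here, so that effects of tag, clone and auxin cannot be told apart in a comparison with them. No label says that the libraries came from separate cultures, and P values measure the spread between these libraries, which may be technical. Counts of Yeats2 auxin 1 and 3 differed least of all pairs within a group, with a chi-square per gene of 3.82, against 22.1 to 53.9 for the others. Whether these 2 are separate samples was not tested, and the spread within Yeats2 auxin may be understated.

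Entry into mitosis is driven by the kinase CDK1 with B-type cyclins, and Polo-like and Aurora kinases then build the spindle and recruit the checkpoint proteins. The checkpoint holds back the anaphase-promoting complex until every kinetochore is attached, after which securin and cyclin B are destroyed. Most of these genes are transcribed late in the cycle under B-MYB, FOXM1 and the MuvB complex. When p53 is active, p21 (Cdkn1a) leads to assembly of the repressive DREAM complex, which holds MuvB at a short promoter element, the cell cycle genes homology region (CHR), often beside CCAAT boxes bound by NF-Y. Mouse ESCs cycle fast and keep these genes at high levels.

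Promoters are shown first because the CHR is the element through which such repression is known to work. RefSeq gave a promoter, 250 bases before to 50 after the start of transcription, for 35 of the 43 genes (assembly GRCm38.p6). The letters searched on both strands were TTTGAA or TTTAAA for the CHR and CCAAT for the CCAAT box. The 2 motifs cannot overlap by more than an end letter, and TTTAAA reads the same on both strands. The CHR letters were in promoters of 28 of the 35 genes (80.0%), against 30.6% of all 27025 genes with a RefSeq promoter and 27.6% of all 32851 promoters. CCAAT was in 26 (74.3%), against 41.1% of all genes, and both stood in 1 promoter for 24 (68.6%), against 12.2%. A search for the letters of an E2F site, TTTCGCGC, TTTGGCGC, TTTCCCGC or TTTGCCGC, matched 2 of the 35 (5.71%) and 2.6% of all genes. Such a match describes the letters and is not by itself a bound site. The matches lay close to the start, with 32 of 41 CHR matches and 40 of 56 CCAAT matches between 100 bases before and 50 after it, counted in 1 promoter per gene.

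The 6 promoter stretches printed here belong to genes on both sides of the fold changes given later, each the 120 bases before the RefSeq start, read in the direction of transcription, with CHR and CCAAT letters (on either strand) in capitals. The first 2 belong to Ccnb1 and Cdk1, the pair at the centre of mitotic entry, the next 2 to Plk1 and Cdc20, which had the highest fold changes among these 6, and the last 2 to Bub1 and Ncapg, which had the lowest.
Ccnb1, chr13:100786487-100786606, minus strand: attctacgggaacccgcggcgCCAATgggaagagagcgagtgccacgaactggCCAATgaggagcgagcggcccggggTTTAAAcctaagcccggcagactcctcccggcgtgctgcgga
Cdk1, chr10:69352913-69353032, minus strand: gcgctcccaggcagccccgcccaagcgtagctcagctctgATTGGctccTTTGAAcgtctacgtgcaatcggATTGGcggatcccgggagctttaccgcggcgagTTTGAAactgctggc
Plk1, chr7:122159315-122159434, plus strand: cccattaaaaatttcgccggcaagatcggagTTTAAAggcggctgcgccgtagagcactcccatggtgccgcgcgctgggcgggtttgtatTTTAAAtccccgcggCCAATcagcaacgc
Cdc20, chr4:118437344-118437463, minus strand: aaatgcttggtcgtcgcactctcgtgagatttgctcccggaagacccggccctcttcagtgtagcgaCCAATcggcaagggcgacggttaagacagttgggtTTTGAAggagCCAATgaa
Bub1, chr2:127831860-127831979, minus strand: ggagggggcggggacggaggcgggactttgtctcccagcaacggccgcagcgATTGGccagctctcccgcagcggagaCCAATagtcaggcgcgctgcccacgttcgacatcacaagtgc
Ncapg, chr5:45669805-45669924, plus strand: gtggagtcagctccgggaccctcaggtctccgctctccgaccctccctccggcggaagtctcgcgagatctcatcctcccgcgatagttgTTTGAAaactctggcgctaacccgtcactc
CHR letters stood in 5 of these 6 stretches, among the genes with high and with low fold changes, and Bub1 held CCAAT letters alone.

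**Figure D1:**
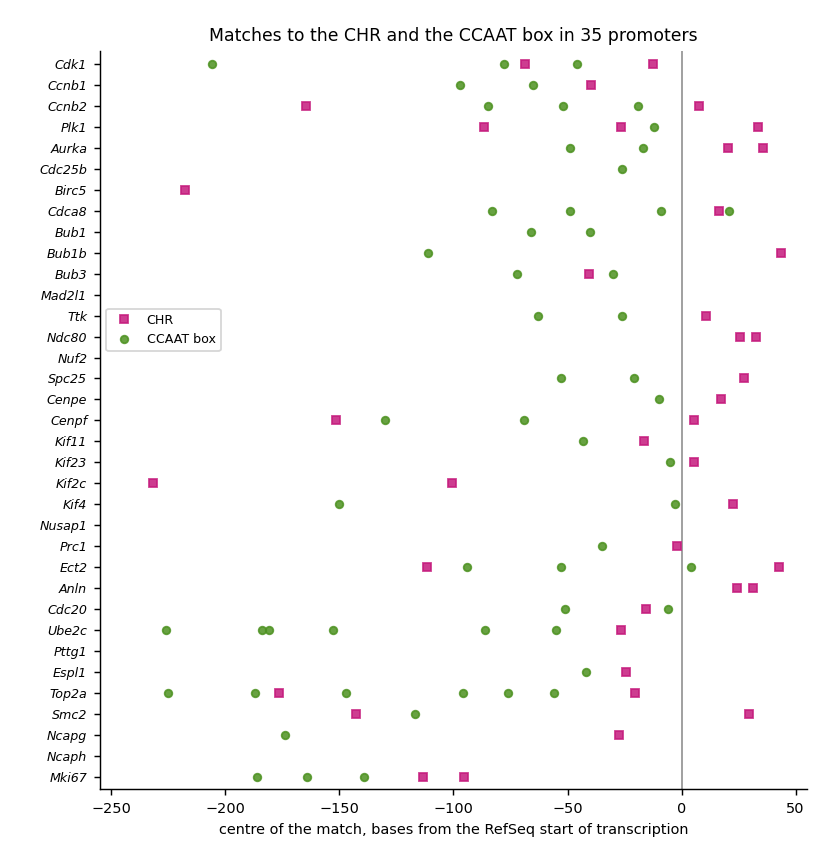
Centres of the matches to the CHR (squares) and the CCAAT box (circles) in the promoters of 35 mitosis genes, 1 RefSeq promoter per gene, by distance in bases from the start of transcription (line at 0). Most matches of both kinds lie between 100 bases before and 50 after the start, and Mad2l1, Nuf2, Nusap1, Pttg1 and Ncaph have neither.

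Reads assigned to genes ranged from 14315120 (Zzz3 auxin 3) to 27884704 (Yeats2 auxin 2) per library. Zzz3 RNA was at 187 and 182 CPM in the controls and at 77.5, 96.9 and 112 CPM in Zzz3 auxin (log2 fold change -0.95 ± 0.14 SE, adjusted P = 0.0187), while Yeats2 RNA in Yeats2 auxin had a log2 fold change of -0.32 ± 0.26 (adjusted P = 0.605). The degron acts on the protein, so RNA does not check the labels. The summed level of 8 markers of ESCs was 4550 to 5340 CPM in all libraries, and that of 8 fibroblast or feeder markers was 1.32 to 2.30 CPM, with Dcn at 0 in every library. Summed markers of neuroectoderm were at 40.7 to 42.9 CPM in the control pair, 48.4 to 71.6 in Zzz3 auxin and 44.8 to 50.2 in Yeats2 auxin, those of mesendoderm at 15.1 to 17.1, 14.0 to 21.5 and 11.6 to 14.4, and those of endoderm at 0.767 to 1.54 over all libraries. In the same order of groups, ESC markers were at 5120 to 5300, 4550 to 5180 and 4690 to 5340 CPM. The neuroectoderm sum was mostly Nes, at 35.9 to 68.0 CPM over all libraries. Of the 3 neuroectoderm markers, 1 had a log2 fold change below 0 in Zzz3 auxin and 2 in Yeats2 auxin. The same counts held for the 3 mesendoderm markers. No marker of these lists was called in any comparison by edgeR at an adjusted P under 0.05, and DESeq2 called 1, an ESC marker in Zzz3 auxin, and their part in the results below was not tested.

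As a module the mitosis genes stood high in the controls. Per length of exon, their median was 36.4 RPKM (CPM per kilobase of exon), against 3.24 over all genes tested. Top2a, the topoisomerase that untangles replicated chromosomes, was highest at 185 ± 6.19 RPKM (SD, n = 2), followed by the condensin subunit Smc2 (108 ± 10.1) and the kinesin Kif20a (104 ± 5.95). The lowest 3 were Cdc25c (9.08 ± 0.20) and Cdc25b (3.83 ± 0.0054), phosphatases that activate CDK1, and Foxm1 (8.06 ± 0.386), the transcription factor of late cell cycle genes. Smc2 and Kif20a did not differ beyond their spread. No member had fewer than 165 reads in any library.

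The module as a whole was close to its control level in both depletions. Summed over the 43 genes, the level was 11310 and 11070 CPM in the control pair, 11090, 10950 and 9967 CPM with Zzz3 auxin, and 10660, 10670 and 10730 CPM with Yeats2 auxin. The shallowest library, Zzz3 auxin 3, was the lowest, and all 3 Yeats2 auxin libraries lay below both controls. In bulk RNA fewer cells in mitosis and less RNA per cell cannot be told apart. By gene, the median log2 fold change of the 43 was 0.01 in Zzz3 auxin, where it was 0.01 over all genes tested, and -0.06 in Yeats2 auxin, where it was -0.01. Positive and negative values were mixed, with 22 genes above and 21 below 0 in Zzz3 auxin, and 21 above and 22 below in Yeats2 auxin.

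Both comparisons with control rest on the same 2 control libraries. No mitosis gene was called in any comparison by edgeR's quasi-likelihood test at an adjusted P under 0.05. The same test called 0.753% of all genes with Zzz3 auxin, 0.445% with Yeats2 auxin and 0.0% between the depletions. At those shares less than a single call among 43 genes would be the background, and the count of 0 is read no further. The smallest adjusted P of a member was 0.0709 (Ncapg) in Zzz3 auxin and 0.134 (Bub1) in Yeats2 auxin. DESeq2 called 2 members in each depletion, Ncapg and Birc5 with Zzz3 auxin and Ncapg and Bub1 with Yeats2 auxin, all with negative values and with adjusted P values between 0.0108 and 0.0497. These were 4.65% of the members in each, against 8.17% and 3.15% of the genes to which DESeq2 gave an adjusted P. Without the filter on low counts edgeR called 5 members in Zzz3 auxin (Ncapg, Birc5, Nuf2 and Mad2l1 with negative values and Plk1 with a positive one) and 1 in Yeats2 auxin (Nuf2), which were 11.6% and 2.33% of the members, against 4.67% and 1.68% of all genes. Without Zzz3 auxin replicate 2 it called Ncapg and Birc5 in Zzz3 auxin (4.65%, against 4.84% of all genes). Over the 16 alternatives the adjusted P of Ncapg ran from 0.0108 to 0.535 in Zzz3 auxin and from 0.0391 to 0.758 in Yeats2 auxin, that of Birc5 in Zzz3 auxin from 0.0194 to 0.516 and that of Bub1 in Yeats2 auxin from 0.0316 to 0.758, with negative values in every alternative.

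At an unadjusted P under 0.05, 8 members were lower in Zzz3 auxin, against a background of 10.1% of all genes, and 5 were higher, against 11.6%. In Yeats2 auxin 7 were lower, against 6.98% of all genes, and 3 were higher, against 7.65%. Of the members these were 18.6% and 11.6% with Zzz3 auxin, against 16.3% and 6.98% with Yeats2 auxin. The members thus held a larger share of lower genes than the background, which was not matched for level, and a share of higher genes within a point of it. The libraries differed in their trend on GC content, and with the counts corrected for GC content and length 4 members were lower in Zzz3 auxin (9.30%, against 8.41% of all genes) and 5 in Yeats2 auxin (11.6%, against 5.92%). The lower share of Zzz3 auxin was then near its background, with Cdk1, Birc5, Mad2l1 and Nuf2 left in it. That of Yeats2 auxin stayed above its background, on 5 genes (Ube2c, Birc5, Pttg1, Nuf2 and Bub1). Higher members after the correction were 6.98% against 8.15% of all genes with Zzz3 auxin, and 4.65% against 6.94% with Yeats2 auxin.

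The 95% intervals give the range of change that the fit allows for each member. In both depletions the interval of all 43 genes lay between a log2 fold change of -1 and 1, which is to say within a 2-fold change. Without Control replicate 2 it held for 40 and 41 of the 43, and without Yeats2 auxin replicate 1 or 3 for 42 in Yeats2 auxin. The widest reach downward was that of Nuf2 in Yeats2 auxin (-0.90) and the widest upward that of Plk1 in Zzz3 auxin (0.81). Over all genes this held for 62.9% with Zzz3 auxin and 66.4% with Yeats2 auxin, and among genes of at least 10 CPM, where every member lies, for 90.4% and 94.6%. No member had a fold change beyond 1.5 in either direction in this fit. With 1 library left out, Plk1, Cdc20, Nuf2, Mad2l1 and Ncapg passed that size in at least 1 comparison with control, up to log2 fold changes of 0.68 (Plk1 in Zzz3 auxin, without Control replicate 2) and -0.66 (Nuf2 in Yeats2 auxin, without Yeats2 auxin replicate 1). The median of the standard errors was 0.12.

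**Figure D2:**
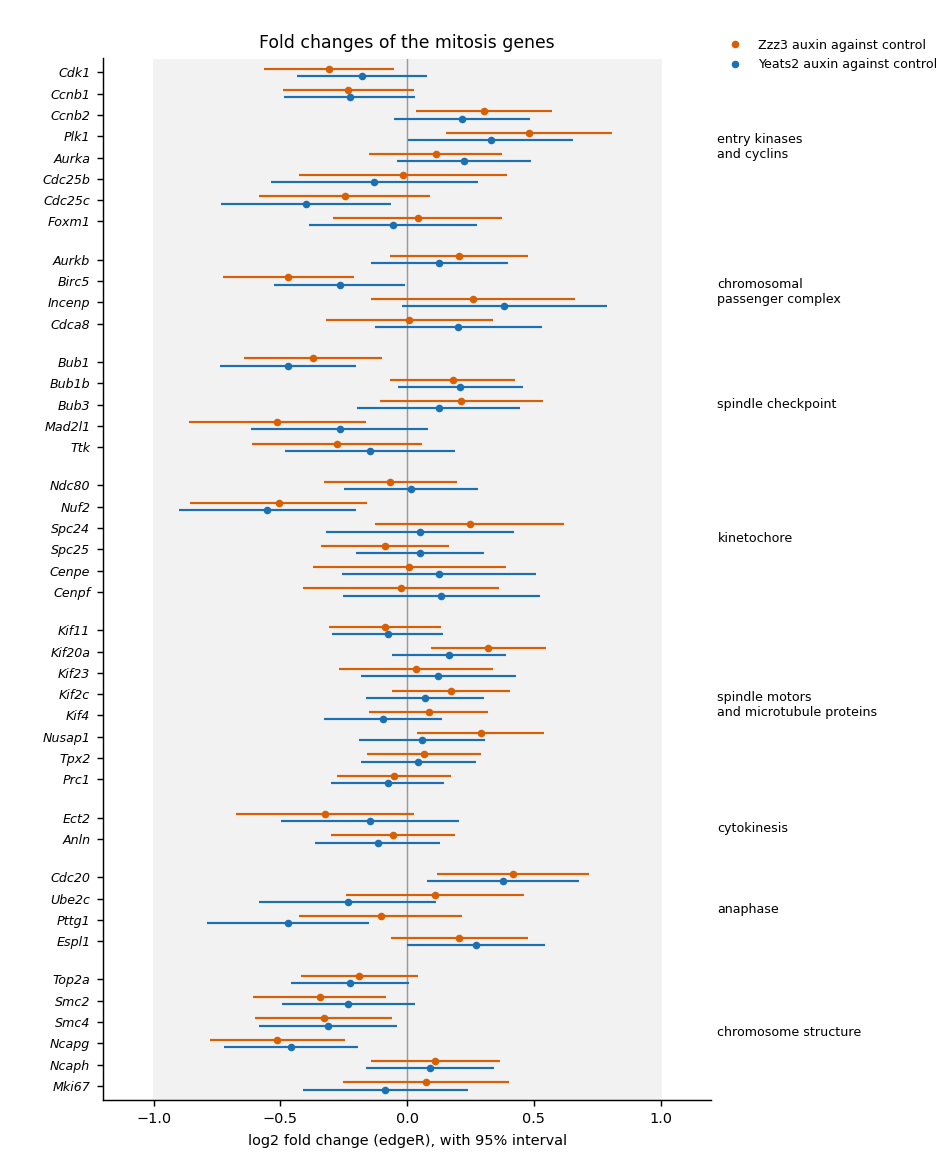
Log2 fold changes of the 43 mitosis genes (points) with 95% intervals (lines) from edgeR, for Zzz3 auxin against control (orange) and Yeats2 auxin against control (blue), ordered by role. The shaded band runs from -1 to 1 and holds every interval, from -0.90 (Nuf2) to 0.81 (Plk1).

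The kinases and cyclins of mitotic entry lay on both sides of 0. Cdk1 was at 395 and 403 CPM in the control pair, 293, 354 and 319 with Zzz3 auxin, and 350, 377 and 332 with Yeats2 auxin. Ccnb1, cyclin B1, was at 216 and 214 CPM, then 161, 186 and 203, and then 188, 178 and 187. All auxin libraries were below both controls for these 2 genes, yet neither was called (Cdk1 in Zzz3 auxin, log2 fold change -0.31 ± 0.12 SE, adjusted P = 0.163). Of the 75-base words of Ccnb1, 35.2% also occur in other transcripts, chiefly its pseudogenes, so its counts may be incomplete. Ccnb2, cyclin B2, ran the other way at 127 and 147 CPM in the control pair, 154, 164 and 188 with Zzz3 auxin, and 156, 163 and 158 with Yeats2 auxin. Plk1, Polo-like kinase 1, was at 44.4 and 57.1 CPM, then 79.6, 61.2 and 71.6, and then 67.0, 61.1 and 63.0. For both, every auxin library was above both controls. The log2 fold change of Plk1 was 0.48 ± 0.15 in Zzz3 auxin (adjusted P = 0.113) and 0.33 ± 0.15 in Yeats2 auxin (adjusted P = 0.338). It rested on the controls, being 0.31 and 0.16 without Control replicate 1, and 0.68 and 0.52 without Control replicate 2.

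Aurka, the Aurora kinase of spindle poles, was at 170 and 207 CPM in the control pair, 199, 206 and 205 with Zzz3 auxin, and 224, 233 and 203 with Yeats2 auxin. Foxm1 was at 44.8 and 47.9 CPM, then 50.2, 45.0 and 47.9, and then 49.6, 35.9 and 48.5. Both overlapped the controls in both depletions. Cdc25c overlapped them in Zzz3 auxin and was lower in every Yeats2 auxin library (log2 fold change -0.40 ± 0.15, unadjusted P = 0.0234, adjusted P = 0.259). Cdc25b had log2 fold changes of -0.02 and -0.13. Over the 8 genes of this role, 4 were above and 4 below 0 in Zzz3 auxin, and 3 above and 5 below in Yeats2 auxin.

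**Figure D3:**
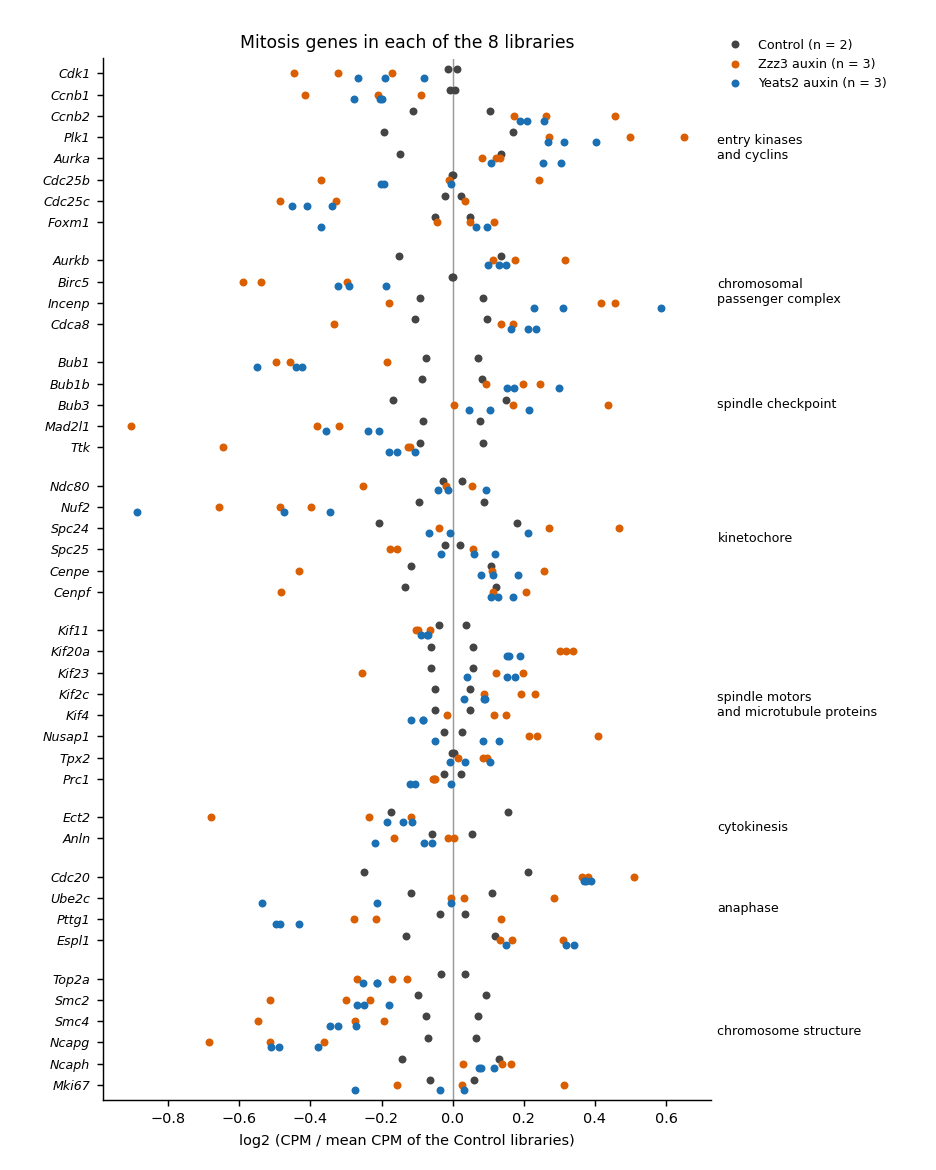
Level of each mitosis gene in each of the 8 libraries, as log2 of its CPM over the mean of both controls, for Control (grey), Zzz3 auxin (orange) and Yeats2 auxin (blue), ordered by role. Values to the left of 0 prevail for Cdk1, Birc5, Bub1, Nuf2 and Ncapg and values to the right for Plk1, Kif20a and Cdc20, and Zzz3 auxin 3 holds the lowest value of several genes, such as Mad2l1 at 136 CPM.

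The chromosomal passenger complex corrects faulty attachments between chromosomes and spindle. Birc5 (survivin), which targets the complex to centromeres, was at 217 and 217 CPM in the control pair, 150, 177 and 144 with Zzz3 auxin, and 177, 191 and 174 with Yeats2 auxin. It was lower in all 6 auxin libraries, with log2 fold changes of -0.47 ± 0.12 (adjusted P = 0.077) and -0.27 ± 0.12 (adjusted P = 0.328). Incenp, the scaffold of the complex, was at 128 and 144 CPM, then 186, 181 and 120, and then 168, 204 and 159. It was above both controls in 5 of 6 auxin libraries. Aurkb, the kinase of the complex, was at 67.0 and 81.7 CPM, then 84.0, 80.4 and 92.6, and then 79.6, 82.5 and 81.4, and overlapped the controls in both depletions. Subunits of this complex thus lay on both sides of 0, with Cdca8 at 0.01 and 0.20.

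The spindle checkpoint was split in the same way. Bub1, a kinase of the checkpoint, was at 278 and 251 CPM in the control pair, 233, 193 and 187 with Zzz3 auxin, and 197, 180 and 195 with Yeats2 auxin. Mad2l1 (MAD2), which binds and restrains CDC20, was at 269 and 241 CPM, then 196, 204 and 136, and then 221, 216 and 199. Both were below the controls in all 6 auxin libraries. The log2 fold change of Bub1 was -0.37 ± 0.12 (adjusted P = 0.126) and -0.47 ± 0.12 (adjusted P = 0.134), and that of Mad2l1 was -0.51 ± 0.16 (adjusted P = 0.113) and -0.27 ± 0.16 (adjusted P = 0.462), the latter turning to 0.02 with the replicate block and the GC and length correction together. Ttk, the kinase that starts the checkpoint, was likewise below both controls throughout (-0.28 and -0.15). Bub1b, the partner of MAD2 in the inhibitory complex, was above both controls throughout (0.18 and 0.21), and Bub3 was at 0.21 and 0.12.

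Among 6 kinetochore genes Nuf2 stood apart from its partners. Nuf2, a subunit of the NDC80 complex that grips microtubules, was at 89.1 and 78.4 CPM in the control pair, 59.8, 63.6 and 53.1 with Zzz3 auxin, and 65.9, 45.2 and 60.2 with Yeats2 auxin. All 6 auxin libraries were lower, with log2 fold changes of -0.51 ± 0.16 (adjusted P = 0.115) and -0.55 ± 0.16 (adjusted P = 0.159). The other 3 subunits of that complex, Ndc80, Spc24 and Spc25, overlapped the controls in both depletions, with log2 fold changes from -0.09 to 0.25. The large kinetochore proteins Cenpe and Cenpf overlapped them too, with Cenpe at 0.01 and 0.13 and Cenpf at -0.02 and 0.14.

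The 8 genes of spindle motors and microtubule proteins had the narrowest range of any role with more than 2 genes, from -0.09 to 0.32 in Zzz3 auxin and from -0.09 to 0.17 in Yeats2 auxin. Kif20a, a kinesin of the central spindle, was at 433 and 469 CPM in the control pair, 571, 556 and 563 with Zzz3 auxin, and 503, 501 and 514 with Yeats2 auxin. All auxin libraries were above both controls (0.32 ± 0.10, adjusted P = 0.12, and 0.17 ± 0.10, adjusted P = 0.476). Its exons overlap those of Cdc23 on the other strand over 1271 bases, and how the counting used strand is not stated, so reads of both may be mixed or left out there. Nusap1, which bundles spindle microtubules, was at 156 and 151 CPM, then 204, 181 and 179, and then 163, 149 and 168, above the controls in every Zzz3 auxin library and overlapping them in Yeats2 auxin. Kif11, the motor that separates the spindle poles, was below both controls in every auxin library, by small amounts (-0.09 and -0.08). The cytokinesis genes Ect2 and Anln were at -0.32 and -0.06 in Zzz3 auxin and at -0.15 and -0.12 in Yeats2 auxin.

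Of the anaphase genes, Cdc20 and Pttg1 encode an activator of the anaphase-promoting complex and its substrate securin. Cdc20 was at 157 and 217 CPM in the control pair, 243, 241 and 266 with Zzz3 auxin, and 241, 243 and 245 with Yeats2 auxin. It was higher in all 6 auxin libraries, with log2 fold changes of 0.42 ± 0.14 (adjusted P = 0.123) and 0.38 ± 0.14 (adjusted P = 0.239), and the controls lay further apart than either auxin group. Without Control replicate 1 these values were 0.20 and 0.16, and without Control replicate 2 they were 0.67 and 0.63. Pttg1 was at 34.0 and 35.6 CPM in the control pair, 38.2, 29.9 and 28.7 with Zzz3 auxin, and 24.6, 24.8 and 25.8 with Yeats2 auxin. It was lower than all other libraries in Yeats2 auxin (-0.47 ± 0.15, adjusted P = 0.179) and overlapped the controls in Zzz3 auxin. Espl1, separase, which cuts cohesin, was at 97.2 and 116 CPM, then 132, 117 and 120, and then 133, 118 and 135. Every auxin library of Espl1 was above both controls (0.21 ± 0.12 and 0.27 ± 0.12), but with GC and length correction the value in Zzz3 auxin turned to -0.10.

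Chromosome structure was the role with the lowest medians among roles of more than 2 genes in Yeats2 auxin (-0.23), and in Zzz3 auxin (-0.26) it was next to the spindle checkpoint (-0.28). Ncapg, a subunit of condensin I, was at 350 and 319 CPM in the control pair, 234, 261 and 208 with Zzz3 auxin, and 235, 258 and 239 with Yeats2 auxin. All 6 auxin libraries were lower, and the log2 fold change was -0.51 ± 0.12 in Zzz3 auxin (95% interval -0.78 to -0.25, adjusted P = 0.0709) and -0.46 ± 0.12 in Yeats2 auxin (-0.72 to -0.19, adjusted P = 0.136). Its exons share 944 bases with those of Lcorl on the other strand. Smc2 and Smc4, the ATPases of condensin, were also below both controls in every auxin library (Smc2 -0.34 and -0.23, Smc4 -0.33 and -0.31), whereas Ncaph, the kleisin of condensin I, overlapped them (0.11 and 0.09).

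Top2a was at 1705 and 1627 CPM in the control pair, 1524, 1479 and 1382 with Zzz3 auxin, and 1399, 1437 and 1438 with Yeats2 auxin. It was lower in all 6 auxin libraries, with log2 fold changes of -0.19 ± 0.11 (adjusted P = 0.324) and -0.23 ± 0.11 (adjusted P = 0.351). Mki67, the proliferation marker Ki-67, was at 522 and 479 CPM, then 622, 509 and 449, and then 488, 414 and 512. It overlapped the controls in both depletions, at 0.07 ± 0.15 and -0.09 ± 0.15.

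Counted over the module, 13 genes had every Zzz3 auxin library below both controls, against a background of 18.9% of all genes, and 9 had every library above them, against 16.8%. In Yeats2 auxin 17 genes lay wholly below, against 21.0%, and 8 wholly above, against 19.3%. In shares of the module these were 30.2% and 20.9% with Zzz3 auxin, and 39.5% and 18.6% with Yeats2 auxin. Lower genes exceeded their background in both depletions by this count, which was made on levels without the GC and length correction. By the unadjusted P the corrected lower share in Zzz3 auxin was near its background and that in Yeats2 auxin above its own, as given above.

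The depletions were also compared with each other, where effects of tag, clone and depleted subunit cannot be told apart. Between them no member was lower or higher at an adjusted P under 0.05, against 0.0% of all genes, and the smallest adjusted P was 0.779. DESeq2 and edgeR without the filter also called 0 members, against 0.00909% and 0.354% of all genes. At an unadjusted P under 0.05, 3 were lower in Yeats2 auxin (Pttg1 -0.37, Ube2c -0.34 and Nusap1 -0.23), against 3.81% of all genes, and 0 were higher, against 2.44%. Ube2c is the ubiquitin-conjugating enzyme of the anaphase-promoting complex. Libraries did not overlap for 4 genes that were lower in Yeats2 auxin (Pttg1, Nusap1, Kif20a and Kif4), against 5.82% of all genes, and for 0 that were higher, against 5.25%. The interval of the difference lay within -1 and 1 for all 43 genes, as it did for 73.8% of all genes and 97.3% of those of at least 10 CPM, and the widest reached from -0.66 (Ube2c) to 0.56 (Mad2l1).

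The size and sign of the fold changes followed the base composition of the genes. Libraries differed in this respect over all genes: taken against each gene's mean, the median of the GC-rich genes (over 55.0%) minus that of the GC-poor genes (under 43.3%), 3502 of each, was -0.63 on the log2 scale in Control 1 and -0.08 in Control 2. It was 0.16, -0.03 and 0.47 in the Zzz3 auxin libraries and 0.04, 0.15 and -0.04 in the Yeats2 auxin libraries. Control 1 and Zzz3 auxin 3 thus stood at the ends of this trend. GC content here is that of the longest transcript of each gene. Among the mitosis genes, Pearson's r between this GC content and log2 fold change was 0.736 in Zzz3 auxin and 0.607 in Yeats2 auxin. These cover 43 genes that share the same libraries, and over all genes r was 0.365 and 0.308. The 14 members of lowest GC content, 34.8 to 43.3%, had a median of -0.30 in the first depletion (ZZZ3), with 12 of 14 below 0, and the 14 of highest, 48.4 to 56.1%, had a median of 0.20 with 13 of 14 above 0. The same medians in Yeats2 auxin were -0.15 and 0.19. Ncapg (34.8%), Smc2 (39.7%), Mad2l1 (40.1%), Smc4 (40.2%), Bub1 (41.0%) and Nuf2 (41.7%) are in the first group, and Cdc20 (55.6%) and Plk1 (56.0%) are in the last. Birc5 (47.4%) and Cdk1 (47.8%) are in neither.

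With the counts corrected for a trend on GC content and length in each library, r over the members was 0.262 and 0.147. Ncapg then had log2 fold changes of -0.29 and -0.21, Plk1 of 0.23 and 0.17, and Cdc20 of 0.20 and 0.24, so that these 3 kept less than their uncorrected size. Cdk1 (-0.29 and -0.16) and Birc5 (-0.43 and -0.23) were close to their uncorrected values. Nuf2 was at -0.34 and -0.40 and Bub1 at -0.17 and -0.30, smaller than uncorrected. Nusap1 in Zzz3 auxin instead grew from 0.29 to 0.475 (edgeR, adjusted P = 0.0627). No member was called after the correction either, and the median of the 43 was 0.06 and 0.04. Whether the composition of the libraries accounts for the uncorrected values was not tested.

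**Figure D4:**
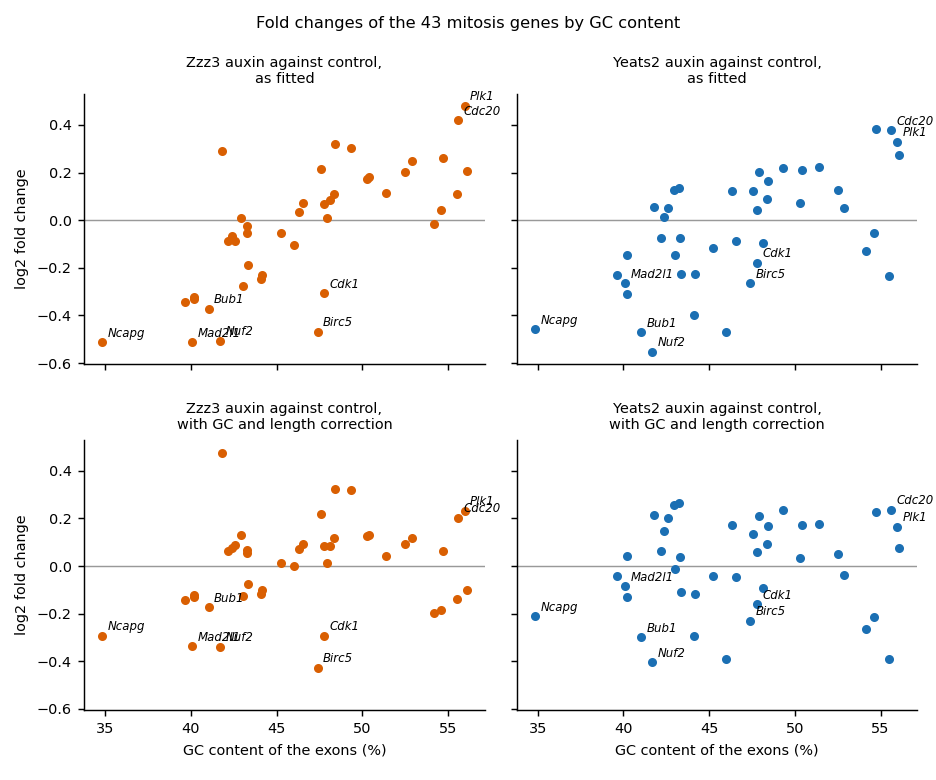
Log2 fold change of each of the 43 mitosis genes by the GC content of the exons of its longest transcript in percent, for Zzz3 auxin (left) and Yeats2 auxin (right) against control, as fitted (top) and with GC and length correction (bottom). The upward slope of the top panels (r = 0.736 and 0.607) is flatter in the bottom ones (0.262 and 0.147), while Birc5 and Cdk1 stay near their values.

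Over the 8 libraries the members did not vary as 1 block. Pearson's r of a member's log2 CPM with the mean of the other 42 had a median of 0.226, was over 0.5 for 15 members and under -0.5 for 2 (Bub3 and Ccnb2), with Cdc25b (0.885), Ttk (0.695) and Smc4 (0.693) the highest. These 8 points share depth and base composition with every gene. By promoter, the 28 genes with CHR letters had a median log2 fold change of -0.01 in Zzz3 auxin (14 above and 14 below 0) and -0.03 in Yeats2 auxin (14 and 14). The 7 without them, Bub1, Mad2l1 and Nuf2 included, were at -0.11 and -0.27, with 5 of 7 below 0 in each. Genes with and without the CHR letters thus stood on both sides of 0.

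The p53 readouts bear on the other side of the question. Mdm2, the ubiquitin ligase that p53 induces against itself, was at 191 and 177 CPM in the control pair, 307, 333 and 265 with Zzz3 auxin, and 287, 287 and 316 with Yeats2 auxin. Plk2, another target of p53, was at 83.7 and 84.6 CPM, then 219, 218 and 174, and then 180, 203 and 200. Of 8 genes, Trp53 and 7 of its targets, 5 were called higher in Zzz3 auxin (Plk2 1.28, Sesn2 1.01, Phlda3 0.78, Mdm2 0.72 and Btg2 0.68) and 4 in Yeats2 auxin (the same without Sesn2). The adjusted P was 0.00465 and 0.00799 for Plk2 and 0.0359 to 0.0428 for the other calls. Every call of the list was lost in both depletions without Control replicate 1 and again without Control replicate 2, in Zzz3 auxin with only the compared groups in the fit, and in Yeats2 auxin without Yeats2 auxin replicate 3. Only Plk2 was called in Zzz3 auxin without Zzz3 auxin replicate 1 or any 1 Yeats2 auxin library, in Yeats2 auxin without Yeats2 auxin replicate 1 or 2, and in both with the replicate block. Phlda3 was also lost in both with GC and length correction, and in Yeats2 auxin without Zzz3 auxin replicate 2. Some calls were gained instead. Ccng1, not called in the main fit (0.40 and 0.37), was called in both with GC and length correction. In Zzz3 auxin it was also called by DESeq2 and with the replicate block added to that correction. Sesn2 was gained in Yeats2 auxin by DESeq2, without the filter, with only the compared groups and without Zzz3 auxin replicate 3. The log2 fold change of Plk2 stayed between 1.18 and 1.39 over the alternatives. This list and its rise were known before from these libraries and are no independent evidence. Cdkn1a, the inhibitor of cyclin-dependent kinases through which p53 acts on the cell cycle genes, was at 78.2 and 53.3 CPM in the control pair, 79.2, 82.7 and 33.3 with Zzz3 auxin, and 75.1, 73.2 and 71.7 with Yeats2 auxin. It overlapped the controls in both, with log2 fold changes of -0.01 ± 0.31 and 0.16 ± 0.31 (adjusted P = 0.993 and 0.846). Over the alternatives the log2 fold change of Cdkn1a ran from -0.256 to 0.613 in Zzz3 auxin and from -0.089 to 0.475 in Yeats2 auxin. Its sign thus depended on the alternative in both depletions. The controls lay apart (78.2 and 53.3 CPM), and Zzz3 auxin 3 was the lowest library (33.3 CPM). Trp53 itself had values of -0.34 ± 0.21 and -0.19 ± 0.21.

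The other cell cycle lists held genes on both sides of 0, with medians below 0. Of 66 other mitotic genes 0 were called in either depletion, with 40 below 0 in Zzz3 auxin (median -0.12) and 42 in Yeats2 auxin (-0.08). At an unadjusted P under 0.05, 13 of them were lower and 8 higher with Zzz3 auxin, and 10 and 5 with Yeats2 auxin, and DESeq2 called 9 and 3. Over all genes the unadjusted shares were 10.1% lower and 11.6% higher with Zzz3 auxin, and 6.98% and 7.65% with Yeats2 auxin. DESeq2 called 8.17% and 3.15% of the genes to which it gave an adjusted P. The lower genes of this list thus held a larger share than this background, not matched for level, in both depletions. Counts and medians of this list and of those below were made without the GC and length correction. What that correction does to these lists was not tested. The list of the anaphase-promoting complex, 16 genes with its regulators Fzr1 and Fbxo5 among them, had medians of -0.19 and -0.07. Cohesin holds sister chromatids together, and 10 genes of cohesin and its regulators had -0.23 and -0.11. Of these 10, 9 and 8 were below 0. In both lists 0 were called. At an unadjusted P under 0.05, 6 genes of the complex list were lower and 2 higher with Zzz3 auxin, and 4 and 2 with Yeats2 auxin. By the same rule 1 gene of the cohesin list was lower in each. In the complex list the lower genes were a larger share than over all genes in both depletions, as were the higher ones in Yeats2 auxin. With Zzz3 auxin the higher ones were near the share over all genes. These counts among 16 genes are small. DESeq2 called 2 and 1 genes of the complex list and 0 of the cohesin list. Among 14 genes of DREAM, MuvB and their activators, 0 were called, at medians of -0.10 and -0.06, and DESeq2 called 1 in each depletion. At an unadjusted P under 0.05, 2 of them were lower and 2 higher with Zzz3 auxin, and 2 and 3 with Yeats2 auxin. The largest positive values there were those of Rbl2, the p130 subunit of DREAM, at 0.55 ± 0.18 in Zzz3 auxin (adjusted P = 0.119) and of E2f1 at 0.64 ± 0.14 in Yeats2 auxin (adjusted P = 0.0854). Of 30 DNA replication genes 1 was called, Orc6 of the origin recognition complex, lower in Yeats2 auxin (-0.70 ± 0.12, adjusted P = 0.0382), with list medians of -0.06 and -0.03. At an unadjusted P under 0.05, 4 of them were lower and 4 higher with Zzz3 auxin, and 2 and 4 with Yeats2 auxin, and DESeq2 called 4 and 2.

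**Figure D5:**
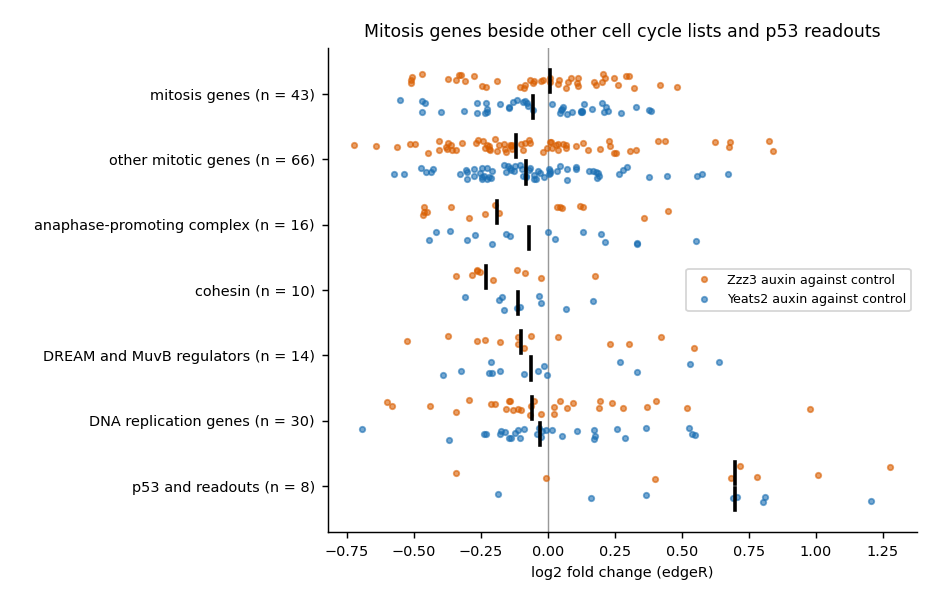
Log2 fold changes of single genes (points) and their medians (black bars) in the mitosis genes, 5 other cell cycle lists and p53 with its readouts, for Zzz3 auxin (orange) and Yeats2 auxin (blue) against control. Points are spread vertically for display only. The medians of the cell cycle lists lie between -0.23 and 0.01, and those of p53 and its readouts at 0.70.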

How the data were processed

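RNA of 8 mouse ESC libraries was prepared after ribosomal depletion (per the protocol; the labels name poly(A) RNA). Per the deposited files and the methods of the study, the authors aligned reads to mm10 with STAR 2.5.3a and deposited raw counts per gene from HTSeq 0.6.1p1, 1 file per library, without normalization. The strand option is not given in the sources used here. Besides 55401 genes, a file lists 5 totals of reads given to no gene, which were not tested. Reads that met no gene were 29.6 to 37.1% of uniquely aligned reads.

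Genes were kept by filterByExpr, scaled by TMM and fitted over all 8 libraries, with a mean per group, by edgeR 4.0.16 (robust quasi-likelihood, R 4.3.3). P values are two-sided, with Benjamini-Hochberg adjustment over all genes tested. The standard error is the log2 fold change over the square root of F. CPM were TMM-scaled, and RPKM were CPM per kilobase of exon in GENCODE M21 (GRCm38, the assembly of mm10), which matched 55141 identifiers. Counts of reads limit precision only by counting error. Groups came from the labels.

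The members and gene lists were chosen with earlier results of these data known. Values in every library are given for any member called, for the 4 members of smallest P in each direction in each comparison with control, and for 12 central genes (Cdk1, Ccnb1, Ccnb2, Plk1, Aurka, Aurkb, Top2a, Foxm1, Bub1, Mad2l1, Cdc20 and Mki67). Of genes outside this rule, Mdm2, Plk2, Cdkn1a, Zzz3 and Yeats2 were chosen after their values were seen. The list p53 and readouts held Trp53, Mdm2, Cdkn1a, Plk2, Btg2, Phlda3, Ccng1 and Sesn2. Alternatives were DESeq2 1.42.0 (the tool of the study), median-of-ratios scaling, no filter, only the compared groups, the replicate block, a correction for GC content and length (a lowess curve per library, span 0.3), and leaving out each library. The fit was tested on simulated data.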

Additional observations from a re-analysis of the deposited data

How the results depend on the processing

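Calls of mitosis genes rested on the tool and the filter. Against 0 in each comparison with control, DESeq2 called 2 in Zzz3 auxin and 2 in Yeats2 auxin, edgeR without the filter called 5 and 1, and with only the compared groups in the fit 0 and 2. Leaving out each library in turn gave 0 to 2 in Zzz3 auxin, the 2 arising without Zzz3 auxin replicate 2, and 0 for Yeats2 auxin. Between the depletions no alternative called a member. The interval lay within -1 and 1 for 40 to 43 members when single libraries were left out and for 43 in the other edgeR fits, and none was made for DESeq2. The median log2 fold change in Yeats2 auxin moved from -0.055 to 0.039 with GC and length correction, and to 0.039 with the replicate block added to it. The cause of these changes was not tested.

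Over all genes the counts in Zzz3 auxin, Yeats2 auxin and between them were 132, 78 and 0 in the fit described, 1083, 418 and 3 by DESeq2, and 1542, 553 and 117 without the filter. They were 0 and 454 against control with only the compared groups, and 18, 8 and 1 without Control 1 and Zzz3 auxin 3 together, an alternative chosen after seeing the data, in which 0 members were called. Leaving out 1 library gave 0 (without either control) to 841 (without Zzz3 auxin replicate 2) in Zzz3 auxin, 0 (without Control replicate 1 or Yeats2 auxin replicate 3) to 217 (without Zzz3 auxin replicate 3) in Yeats2 auxin, and 0 to 1 between them. The share of all genes called, given as background, moves with these counts.

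The labels number the replicates alike in all groups. Deviations of same-numbered libraries from their group means correlated between -0.34 (Control 2 and Zzz3 auxin 2) and 0.31 (Control 2 and Yeats2 auxin 2). With 2 controls the deviations of each mirror those of the other, and all libraries carry the trend on GC content. These values therefore cannot settle whether libraries of the same number belong together. With the replicate block 42 and 32 genes were called against control, 33 and 39 with the GC and length correction added, and 0 members in each.

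Some single members changed sign. Aurka in Zzz3 auxin ran from -0.026 to 0.265 when single libraries were left out (-0.019 without the pair of libraries named above), Foxm1 from -0.010 to 0.094 (-0.002 without the pair, -0.185 with GC and length correction, -0.196 with the replicate block added) and Mki67 from -0.046 to 0.189. In Yeats2 auxin Foxm1 ran from -0.133 to 0.081 and Aurkb from -0.009 to 0.280. Espl1 in Zzz3 auxin was at -0.100 with GC and length correction and -0.081 with the replicate block added, and with both Pttg1 in Zzz3 auxin was at 0.011 and Mad2l1 in Yeats2 auxin at 0.024. With 2 controls, and groups of 2 or 3, leaving out 1 control leaves a single library that is assumed to vary like the others. The fewest reads of a member in a library were 165, for Cdc25b, which also had the largest standard error in both comparisons with control (0.19).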
